A study of Drosophila melanogaster with 6 samples.

Results

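The genes described here are 10 components of the Toll and Imd immune signalling pathways of *Drosophila melanogaster*: spz, Tl, pll, cact, dl and Dif of the Toll pathway, and PGRP-LC, imd, key and Rel of the Imd pathway. They were taken by name, as core genes of both pathways, with earlier results of these data known, and all 10 were found among 17525 listed genes. RNA of whole wing imaginal discs, the larval epithelia that give rise to the wing and the notum, was sequenced from 3 control libraries carrying the driver MS1096-Gal4 alone and from 3 libraries carrying MS1096-Gal4 with a dNKAP RNAi transgene. The latter are called the knockdown below. Both groups carry the driver, an insertion at Beadex whose activity centres on the pouch, and the rest of each disc adds RNA from cells with little or no hairpin. The labels give no age, sex or number of animals, and no label ties the replicates to separate crosses. A p-value therefore reflects only how these libraries vary, which may be technical.

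In the Toll pathway a cleaved Spätzle ligand binds the receptor Toll, and the adaptors Myd88 and Tube and the kinase Pelle then bring about the destruction of Cactus, which holds the NF-κB proteins Dorsal and Dif in the cytoplasm. In the Imd pathway peptidoglycan receptors such as PGRP-LC act through the adaptor Imd, and the IκB kinase complex, whose regulatory subunit is encoded by key (Kenny), enables the NF-κB protein Relish to enter the nucleus. Both pathways are known for inducing antimicrobial peptides in the fat body and in hemocytes, and Toll, Dorsal, Dif and Relish have been studied in wing discs in the removal of less fit cells.

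Values are gene sums of FPKM, fragments scaled to transcript length and to library size, so levels can be compared between genes. Differences are from limma on log2(FPKM + 0.5), with p-values adjusted over 6506 tested genes by the Benjamini-Hochberg method. Depth, as read depth times transcript length, ranged from 4.14 to 6.44 gigabases a library. The targeted gene CG6066 (dNKAP) held 23.6, 22.8 and 26.6 FPKM in the control libraries, against 13.96, 13.3 and 11.4 FPKM in the knockdown libraries, lower in every knockdown library (log2 change -0.90, SE 0.11, limma adjusted p = 0.0146). Of 7 wing disc markers, sd, vg, nub, ap and wg were above 0 in every library, while pdm2 was at 0 in control replicates 2 and 3 and Bx in control replicates 1 and 2 and dNKAP RNAi replicate 3.

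Of the 10 Toll and Imd genes 7 were tested, 1 was called higher in dNKAP RNAi, 0 were called lower and 6 did not pass. The gene called was Dif. Over all tested genes 3.72% were called, 3.21% higher and 0.507% lower (209 and 33 genes, or 187 and 62 after quantile normalization). The other 3 genes, pll, imd and Rel, were listed at 0 in all 6 libraries and fell under the minimum mean of 1 FPKM that a gene needed to be tested. Among the 7 tested genes the groups did not overlap for Dif and spz, both higher in the knockdown, where 17.3% of all tested genes were separated in that direction and 28.5% in either. A count of 2 in 7 is too small to be set apart from either share, and Dif is among the 7 only through its knockdown values. The median log2 change was 0.11 over the 6 members above 0 in every library, against 0.03 over all tested genes. Of these 6 genes 0 were called and spz alone had an unadjusted p under 0.05, as did 19% of all tested genes.

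**Figure D1:**
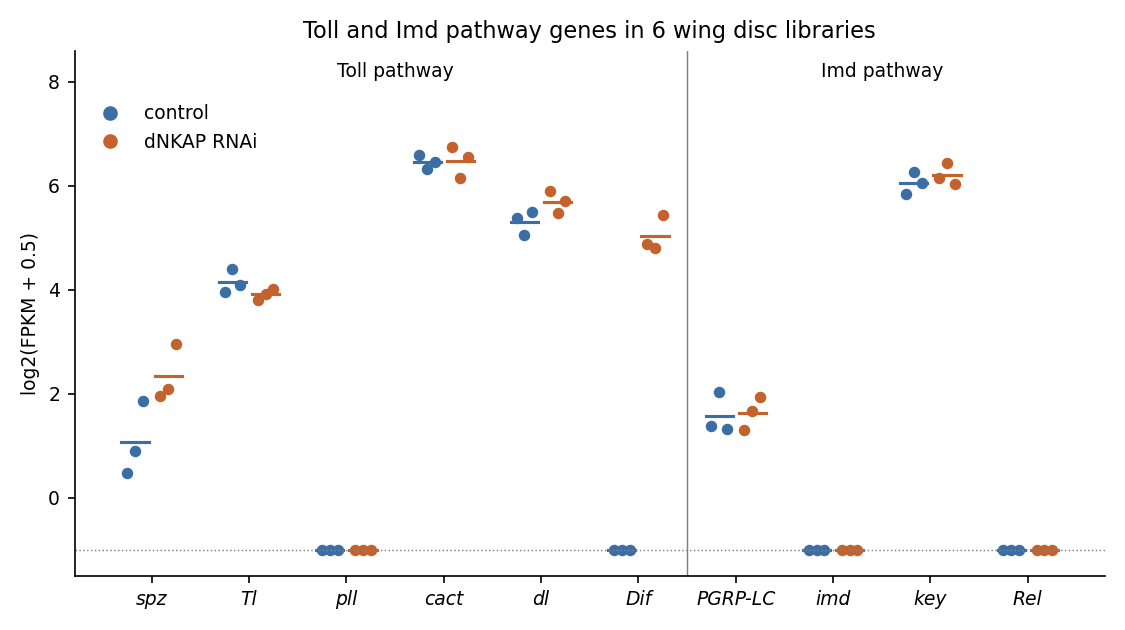
Level of each of the 10 genes as log2(FPKM + 0.5) in control (blue) and dNKAP RNAi (orange) libraries; each point is 1 library, horizontal lines are group means and the dotted line marks a listed value of 0. Dif is at the dotted line in the 3 controls alone, pll, imd and Rel are there in all 6 libraries, and the 2 groups of every other gene but spz overlap.

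Tl, the receptor, and spz, its ligand, were at different levels. The spz gene (chromosome 3R, 27064990 to 27070070, minus strand, dm6 coordinates) held 0.899, 1.36 and 3.13 FPKM in the control libraries, against 3.40, 3.77 and 7.30 FPKM in the knockdown libraries. All dNKAP RNAi libraries lay above all controls, but control replicate 3 and dNKAP RNAi replicate 1 were nearly level. The difference did not pass (log2 change 1.26, SE 0.47, 95% interval 0.08 to 2.44, unadjusted p = 0.0408, limma adjusted p = 0.241).

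Hemocytes, blood cells that adhere to discs, also express spz, and their markers were uneven in the same libraries. Hml held 1.18, 1.69 and 6.41 FPKM in the control libraries, against 7.39, 2.19 and 4.75 FPKM in the knockdown libraries. The 12 hemocyte markers summed to between 236 and 420 FPKM in controls and between 160 and 305 FPKM in dNKAP RNAi. PPO2 went the other way on average, with 38.4, 28.1 and 118 FPKM in the control libraries, against 70.7, 19.0 and 8.87 FPKM in the knockdown libraries. Of these markers 10 were tested and 0 passed, and He was at 0 in every library. The mean log2 level in dNKAP RNAi was higher for 6 of the 10 and lower for 4, among them Pxn, Ppn, PPO1 and PPO2. Their part in the spz values was not tested, and in RNA of whole discs more cells of a type cannot be told apart from more RNA per cell.

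Among 8 annotated spz transcripts, spz-RB held most of the level in dNKAP RNAi, at 2.10, 3.77 and 4.81 FPKM. In controls spz-RB was at 0.216, 0.767 and 0 FPKM, and new isoforms nearest to spz-RK held 2.84 of the 3.13 FPKM in control replicate 3. At these levels the split between transcripts is weakly supported. The 3 genes whose pattern over the 6 libraries was most like that of spz, out of 5505 compared, were Rint1 (Pearson r = 0.997), velo (0.993) and Ntan1 (0.985), each a description over 6 libraries that fall into 2 groups.

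Tl (chromosome 3R, 26799041 to 26842403, plus strand) held 15.1, 20.5 and 16.5 FPKM in the control libraries, against 13.5, 14.6 and 15.6 FPKM in the knockdown libraries. The groups overlapped, with control replicate 1 below dNKAP RNAi replicate 3, and the difference did not pass (log2 change -0.23, 95% interval -0.57 to 0.11, limma adjusted p = 0.408). Every library but control replicate 2 placed all of this level on the transcript Tl-RD. In control replicate 2, the highest of the 6, Tl-RD held 7.86 FPKM and a new isoform 12.7 FPKM, and Tl-RC was at 0 throughout.

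The Cactus inhibitor gene cact had the highest mean listed FPKM of the 10 genes and did not differ beyond its spread. It lies on chromosome 2L (16313036 to 16326207, minus strand) and held 96.5, 79.2 and 87.4 FPKM in the control libraries, against 106.5, 70.4 and 93.9 FPKM in the knockdown libraries. The lowest and the highest library were both in dNKAP RNAi. The log2 change was 0.03 (95% interval -0.41 to 0.46, limma adjusted p = 0.957), and its sign turned under other settings. All of the level stood on cact-RB, except in control replicate 1 and dNKAP RNAi replicate 1, where a new isoform nearest to it held 59.98 and 70.98 FPKM.

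The Dorsal gene dl (chromosome 2L, 17436830 to 17450364, minus strand) held 41.2, 32.6 and 44.6 FPKM in the control libraries, against 59.1, 44.2 and 51.8 FPKM in the knockdown libraries. Only the lowest dNKAP RNAi library and the highest control overlapped, by 0.4 FPKM in rounded values. The log2 change of 0.39 (SE 0.16, 95% interval -0.02 to 0.79) did not pass (unadjusted p = 0.0588, limma adjusted p = 0.284).

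Most of the dl level was on new isoforms nearest to dl-RB, with 35.8, 7.42 and 37.0 FPKM in the control libraries, against 46.2, 37.4 and 42.4 FPKM in the knockdown libraries. The remainder was on dl-RA, with 5.43, 25.2 and 7.54 FPKM in the control libraries, against 12.9, 6.75 and 9.44 FPKM in the knockdown libraries. Control replicate 2 stood apart, with more on dl-RA than on new isoforms. With exact transcript matches alone the dl change was -0.12 on the log2 scale, the other direction, since that setting drops the new isoforms.

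The ratio of cact to dl within each library was chosen after the values were seen and is given as a description. Its exact permutation test gave p = 0.1, the smallest value possible with 3 libraries per group, so no conclusion is drawn from it. It was 2.34, 2.43 and 1.96 in controls and 1.80, 1.59 and 1.81 in dNKAP RNAi, with no overlap. The means were 2.24 ± 0.248 and 1.74 ± 0.123 (SD, n = 3 each). With exact matches alone the difference turned from -0.51 to 0.57.

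**Figure D2:**
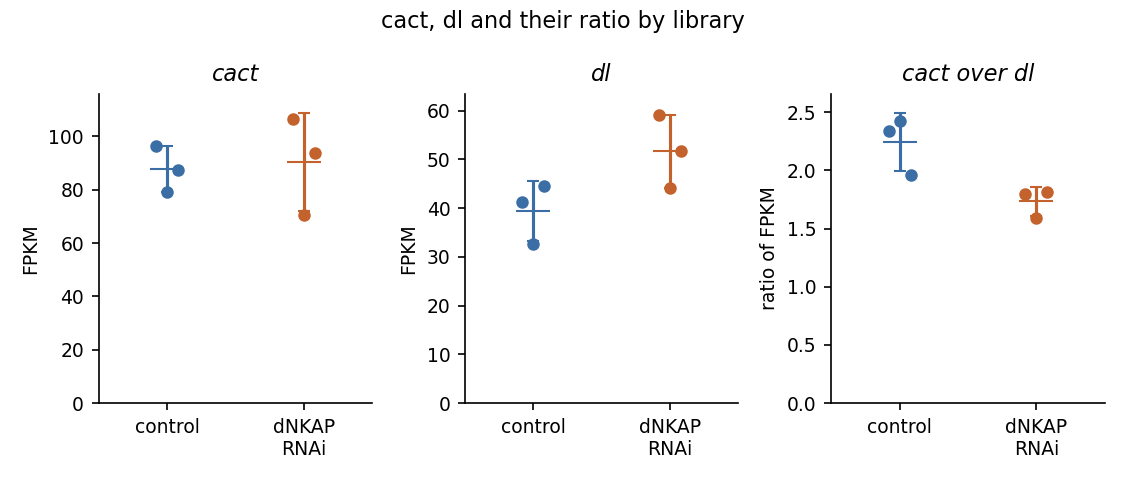
FPKM of cact and of dl, and the ratio of the first to the second, by library; points are libraries, horizontal marks group means and bars SD (n = 3 each). The groups overlap for both genes, while the 3 control ratios lie at 1.96 or above and the 3 dNKAP RNAi ratios at 1.81 or below.

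Dif, the Dorsal-related immunity factor, was the gene called. It lies beside dl on chromosome 2L (17413248 to 17433161, minus strand), had 0 FPKM in all 3 controls, and reached 28.9, 27.5 and 42.7 FPKM in the knockdown libraries. The limma adjusted p was 3.03e-04, and 0.00539 at most with 1 library left out. This p sets 3 identical listed zeros against the knockdown: Dif reached the minimum mean through the knockdown libraries alone, and it is not tested where a gene must be above 0 in every library. No fold is given against values listed at 0.

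The transcript rows behind Dif differed between and within groups. All 4 annotated transcripts were at 0 in controls, and their deposited upper confidence bounds summed to at most 0.146 FPKM. In dNKAP RNAi the bounds, summed over the annotated transcripts and the new isoform, ran from 26.2 to 31.7, from 24.9 to 30.1 and from 39.5 to 46.0 FPKM in replicates 1 to 3. Such sums are not a confidence interval of the gene. Dif-RB was listed at 19.4 and 20.2 FPKM in dNKAP RNAi replicates 1 and 2 and at 0 in replicate 3, where Dif-RC was at 9.35 FPKM. A new isoform nearest to Dif-RA was listed at 9.47, 7.25 and 33.4 FPKM in these libraries. No new isoform of Dif was listed in a control, although the controls held 1678 to 1829 new isoforms in all and the dNKAP RNAi libraries 1705 to 1856.

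The tested gene nearest to Dif did not share its pattern. CG15141, on the opposite strand, overlaps the end of Dif by 252 bases of exon and held 74.5, 64.8 and 76.4 FPKM in the control libraries, against 70.1, 67.4 and 64.0 FPKM in the knockdown libraries (limma adjusted p = 0.585). The next genes, Rsph9 and CG5043, were at 0.249 FPKM or lower in every library. The lncRNA gene CR44409, inside Dif on the other strand, was at 0 in controls and above 0 in every knockdown library, with 0.204, 0.190 and 0.556 FPKM, too low to be tested. The use of strand is not stated, so reads of overlapping genes cannot be told apart.

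**Figure D3:**
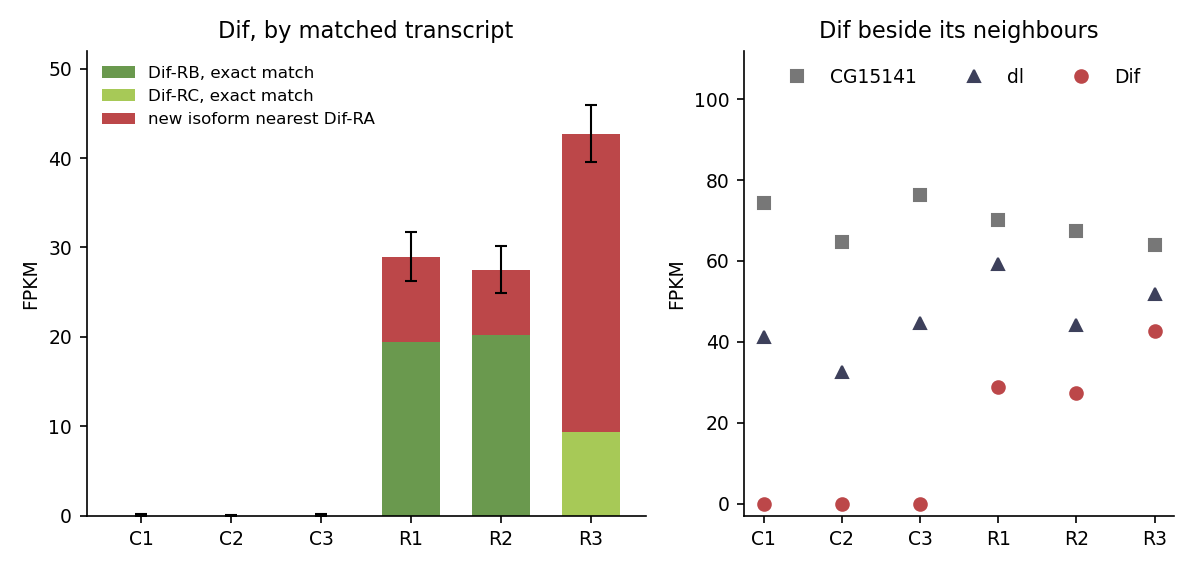
Left, FPKM of Dif in each library (C1 to C3 controls, R1 to R3 dNKAP RNAi), stacked by matched transcript, with bars for the summed deposited confidence bounds; right, Dif beside dl and the overlapping gene CG15141. Dif is at 0 in the controls and between 27.5 and 42.7 FPKM in dNKAP RNAi, while CG15141 stays between 64.0 and 76.4 FPKM in all libraries.

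A value of 0 in these tables is a listed value and not a measured absence. Genes that every cell uses were also at 0 in all 6 libraries, such as Polr2J, an RNA polymerase II subunit gene that lies on the far side of Rsph9 from Dif, and hyx of the Paf1 complex, the neighbour of Rel. Both examples were chosen after their values were seen. In all, 6841 of 17525 genes were at 0 throughout. The Dif pattern, at 0 in every control and above 0 in every dNKAP RNAi library with a mean of at least 5 FPKM, was shared by 29 genes, Dif included, and the reverse pattern by 6. Of the 209 genes called higher 31 were at 0 in all controls, and of the 33 called lower 7 were at 0 in all dNKAP RNAi libraries.

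Each of the 4 genes at 0 in a whole group had an annotated body that overlaps another gene. A body includes introns, and the overlap in exons was small. It was 252 of 5695 exon bases for Dif (with CG15141) and 31 of 1931 for pll (with TfIIA-L). For imd it was 40 of 1518 (with GstE9 and none with Dp1), and for Rel 0 of 3499. The kinase gene pll (chromosome 3R, 27251131 to 27253182, minus strand) lies whole within TfIIA-L, which held 109, 110.02 and 108 FPKM in the control libraries, against 92.9, 110.3 and 103 FPKM in the knockdown libraries. Rel (chromosome 3R, 9044183 to 9047977, minus strand) lies whole within Nmdmc, with 62.1, 38.3 and 51.3 FPKM in the control libraries, against 54.2, 52.4 and 49.1 FPKM in the knockdown libraries. The body of the adaptor gene imd (chromosome 2R, 18409796 to 18413599, minus strand) overlaps that of Dp1 by 1573 bases, and Dp1 was between 210.5 and 295.003 FPKM. GstE9, which overlaps imd at its other end, was also at 0 throughout, and the next gene, GstE8, rose from 6.55 ± 1.55 to 39.5 ± 14.2 FPKM (SD, n = 3 each, limma adjusted p = 0.0209, and up to 0.0855 with 1 library left out, which ends the call).

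Of the other 6 members, cact, spz and key also overlap a gene and were above 0 in every library. Among protein-coding genes, 32.2% of 6445 with overlapping bodies and 26.7% of 7325 without were at 0 in all libraries. The part of gene overlap in the values of 0 was not tested.

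Of the Imd genes above 0, key was abundant and PGRP-LC was low. The IκB kinase subunit gene key (chromosome 2R, 24785514 to 24787411, minus strand) held 57.0, 76.8 and 65.6 FPKM in the control libraries, against 70.9, 86.4 and 65.2 FPKM in the knockdown libraries. The groups overlapped and the difference did not pass (log2 change 0.16, 95% interval -0.23 to 0.55, limma adjusted p = 0.604). Its transcript key-RA was steady, between 25.3 and 34.2 FPKM, and key-RB was between 31.7 and 42.9 FPKM except in dNKAP RNAi replicate 2, where it was at 0 and a new isoform was at 52.3 FPKM.

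The receptor gene PGRP-LC (chromosome 3L, 9338810 to 9348336, plus strand) held 2.12, 3.57 and 1.99 FPKM in the control libraries, against 1.96, 2.69 and 3.31 FPKM in the knockdown libraries. Both groups covered nearly the same range (log2 change 0.06, 95% interval -0.68 to 0.80, limma adjusted p = 0.940). Transcripts of PGRP-LC differ in the part that binds peptidoglycan outside the cell. In every library the level was spread over PGRP-LC-RD, at 0.754 to 1.72 FPKM, PGRP-LC-RH, at 0.205 to 0.869 FPKM, and new isoforms nearest to PGRP-LC-RC, at 0.405 to 1.11 FPKM. Control replicate 3 alone also had PGRP-LC-RA, at 0.302 FPKM, and PGRP-LC-RI, at 0.211 FPKM.

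Ordered by mean level over all 6 libraries, cact (89.0 FPKM) was followed by key (70.3), dl (45.6), Dif (16.5, with 3 libraries at 0), Tl (15.98), spz (3.31) and PGRP-LC (2.61). Neighbours in this order overlapped in range except Tl and spz. Within libraries cact was above key in 5 of 6, key above dl in 6 of 6 and spz above PGRP-LC in 4 of 6. Among tested genes the mean of cact stood at percentile 86.9 and that of PGRP-LC at percentile 10.6.

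A wider set of 83 Toll and Imd pathway genes, drawn up by role, had 43 tested genes, of which 3 rose, 0 fell and 40 did not pass, against the 3.21% called higher over all genes. Their median log2 change was 0.05. The groups did not overlap for 9 of the 43, higher, and for 2, lower, against 17.3% and 11.2% of all tested genes. Among those separated higher, psh and nec had control means of 0.591 and 0.705 FPKM, under the minimum mean of 1 FPKM. They were tested only through their knockdown values, so the counts of higher genes depend in part on the filter. The genes that rose were psh, cactin and POSH, each with no overlap between groups.

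psh (Persephone), a protease that senses microbial proteases and danger signals upstream of Spätzle, had the largest of these rises. It held 0.760, 0.327 and 0.686 FPKM in the control libraries, against 5.98, 5.16 and 5.97 FPKM in the knockdown libraries, 9.65-fold between means (log2 change 2.53, SE 0.25, limma adjusted p = 0.00760). It was under 1 FPKM in every control and so reached the minimum mean through the knockdown libraries alone. Of the 20 extracellular genes in its list 14 were tested, and psh was the only one past the threshold. The most abundant of the list were the serpin gene Spn27A, which inhibits the cascade, at 332 ± 27.7 and 262 ± 6.01 FPKM (SD, n = 3 each, limma adjusted p = 0.0834), and GNBP3, a sensor of fungal glucans, at 223 ± 24.97 and 184 ± 16.3 FPKM (limma adjusted p = 0.261). Both were lower in every dNKAP RNAi library than in any control and neither passed.

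cactin, which encodes a Cactus-binding protein that is also a splicing factor, rose from 26.6, 25.5 and 28.3 FPKM in controls to 39.6, 37.2 and 36.4 FPKM in dNKAP RNAi (log2 change 0.48, SE 0.07, limma adjusted p = 0.0249). It was the 1 of 9 tested genes of Toll signalling inside the cell that passed. tub (Tube) was at 29.8 ± 1.49 and 32.7 ± 0.485 FPKM (limma adjusted p = 0.301) and Myd88 was listed at 0 in every library. lwr, the SUMO-conjugating enzyme gene, was at 276 ± 30.04 and 301 ± 16.7 FPKM (limma adjusted p = 0.536). Dsp1, an HMG protein gene that works with Dorsal, varied from 31.8 to 203 FPKM within controls alone (limma adjusted p = 0.801).

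POSH, a ubiquitin ligase gene that acts on Tak1, rose from 32.8, 27.9 and 33.6 FPKM in controls to 49.0, 45.6 and 50.6 FPKM in dNKAP RNAi (log2 change 0.62, SE 0.09, limma adjusted p = 0.0310). Of its 3169 exon bases 227 are shared with UQCR-6.4, and the part of this overlap in its value was not tested. POSH was the 1 of 5 tested Imd inhibitors that passed, and with exact transcript matches alone it did not pass (limma adjusted p = 0.198). The deubiquitinase genes faf (38.2 ± 0.912 and 50.7 ± 6.95 FPKM, limma adjusted p = 0.139) and scny (58.9 ± 2.43 and 59.7 ± 2.44 FPKM, limma adjusted p = 0.882) did not pass. pirk, an Imd target gene that restrains the pathway, stayed at 1.36 FPKM or lower and was not tested.

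Left out singly, any of several libraries ended the calls of cactin and POSH. The limma adjusted p of cactin rose to 0.0823 with control replicate 1 left out, to 0.0740 with control replicate 2 left out, and between 0.0715 and 0.0849 without any 1 dNKAP RNAi library. That of POSH rose to 0.0788 with control replicate 1 left out, to 0.0631 with control replicate 3 left out, and between 0.0752 and 0.114 without any 1 dNKAP RNAi library. That of psh stayed under the threshold in these fits, at 0.0477 or lower.

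**Figure D4:**
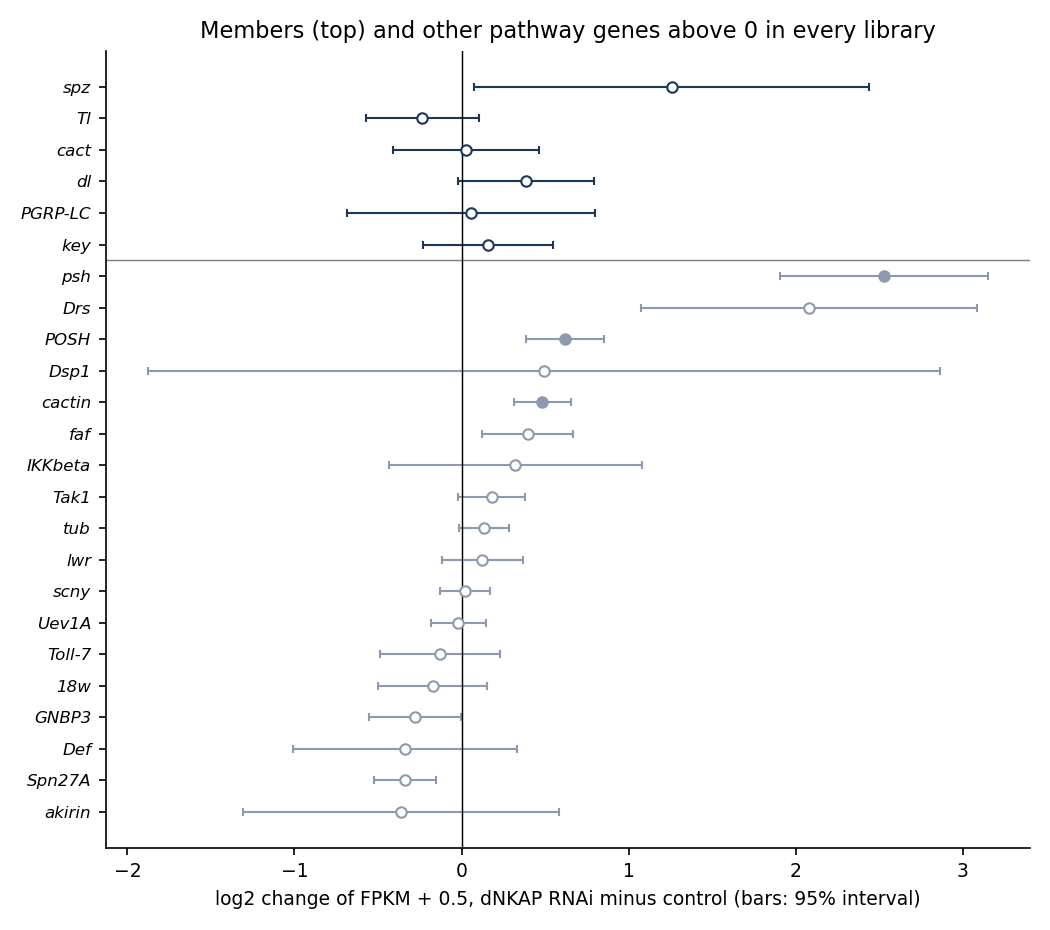
Log2 change of FPKM + 0.5, dNKAP RNAi minus control, with 95% intervals from limma, for the members (top, dark) and the named pathway genes (bottom, grey) above 0 in every library; filled points passed the adjusted threshold of 0.05. The filled points are psh, POSH and cactin, and no member above 0 in every library is filled.

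Of the 10 genes of Imd signalling inside the cell all were tested and 0 passed (0 at an unadjusted p under 0.05). Tak1, the kinase gene downstream of Imd, was at 28.9 ± 2.55 and 32.7 ± 0.207 FPKM (limma adjusted p = 0.298). IKKbeta, the catalytic partner of Kenny, held 10.3, 11.2 and 10.4 FPKM in the control libraries, against 21.5, 9.96 and 11.1 FPKM in the knockdown libraries (limma adjusted p = 0.593). Dredd, the caspase gene, was listed at 31.8 FPKM in dNKAP RNAi replicate 3 and at 0 in the other libraries, and Fadd, the adaptor gene between Imd and Dredd, at 0 in control replicate 3 and at 2.60 to 4.14 FPKM elsewhere. Uev1A was at 237 ± 5.80 and 234 ± 16.7 FPKM (limma adjusted p = 0.894), and akirin varied from 99.5 to 248 FPKM within controls (limma adjusted p = 0.621).

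Of 9 other peptidoglycan recognition protein genes none reached a mean of 1 FPKM. The highest were PGRP-LA, at 0.53 to 1.40 FPKM, and PGRP-LD, at 1.02 FPKM or lower. PGRP-LD held 0, 0 and 0.665 FPKM in the control libraries, against 1.02, 0.873 and 0.991 FPKM in the knockdown libraries. It was higher in all dNKAP RNAi libraries but too low to be tested, and 3683 of its 3957 exon bases are shared with other genes. Among the other Toll receptors 18w was at 41.0 ± 3.41 and 36.6 ± 5.37 FPKM (limma adjusted p = 0.533) and Toll-7 at 30.3 ± 3.09 and 27.9 ± 4.53 FPKM (limma adjusted p = 0.641). Toll-9 held 0.165, 0.467 and 0.323 FPKM in the control libraries, against 0.0861, 0.0607 and 0.118 FPKM in the knockdown libraries, lower in all dNKAP RNAi libraries but too low to be tested.

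Most of the antimicrobial and immune-induced peptide genes, outputs of both pathways, were near 0. Of 18 genes 16 were under the minimum mean, 6 of them at 0 in every library, and of the 2 tested 0 passed. Drs (Drosomycin), the classic Toll output, held 2.31, 3.82 and 1.33 FPKM in the control libraries, against 8.39, 10.8 and 16.2 FPKM in the knockdown libraries. All dNKAP RNAi libraries lay above all controls, but the difference missed the threshold (log2 change 2.08, SE 0.40, limma adjusted p = 0.0628), and it passed when genes at 0 in any library were left out (0.0345, with 0.0345 to 0.232 over all alternatives). Def (Defensin) was at 2.85 ± 0.625 and 2.17 ± 0.620 FPKM (limma adjusted p = 0.550).

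Drs is made largely in the fat body, whose markers were uneven in the same libraries. Fbp1 held 25.1, 10.9 and 0.542 FPKM in the control libraries, against 62.5, 137 and 561 FPKM in the knockdown libraries (limma adjusted p = 0.178). Fbp1 and Drs were both highest in dNKAP RNAi replicate 3, but among controls Fbp1 was highest in replicate 1 and Drs in replicate 2. Lsp1alpha and Lsp1gamma were highest in dNKAP RNAi replicate 1, at 97.9 and 186 FPKM, and their groups overlapped. The 7 fat body markers summed to between 1.94 and 73.8 FPKM in controls and between 173 and 590 FPKM in dNKAP RNAi. Of these markers 3 were tested and 0 passed, and Fbp2, Lsp1beta, Lsp2 and apolpp were at 0 in every library. The part of fat body RNA in the Drs values was not tested.

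**Figure D5:**
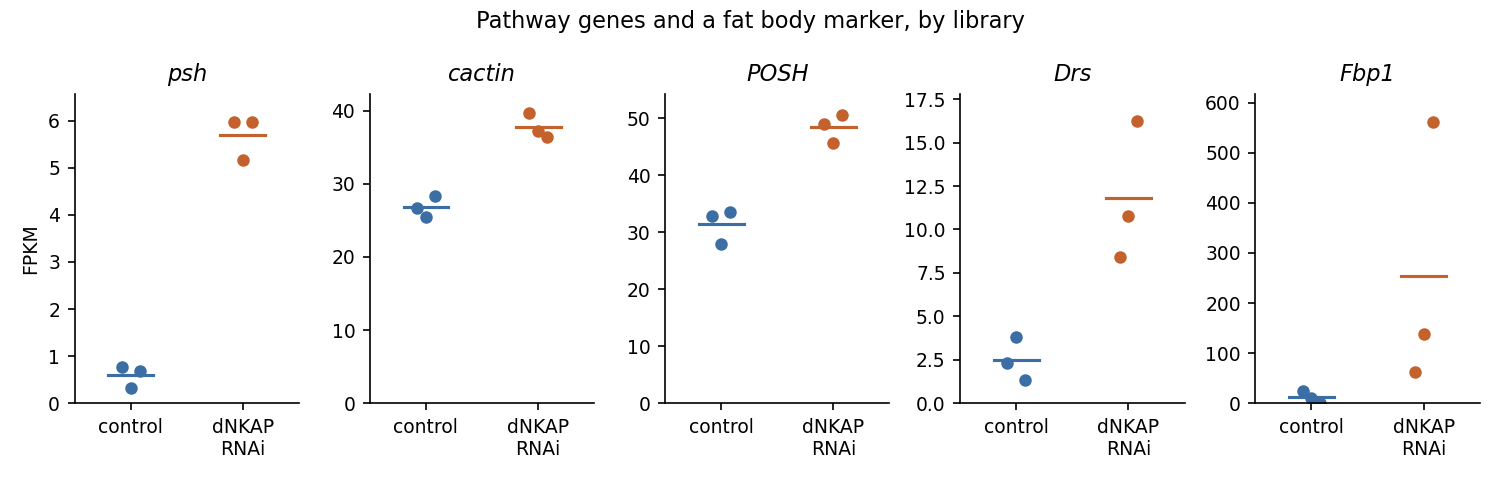
FPKM of psh, cactin, POSH, Drs and the fat body marker Fbp1 by library, each on its own scale from 0; points are libraries and lines are group means. In each panel the 3 dNKAP RNAi libraries lie above the 3 controls, and Drs and Fbp1 are both highest in dNKAP RNAi replicate 3, at 16.2 and 561 FPKM. The other tested fat body markers, Lsp1alpha and Lsp1gamma, are not shown. Their groups overlap, and they are highest in dNKAP RNAi replicate 1, at 97.9 and 186 FPKM.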

How the data were processed

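Per the labels' protocols, disc RNA was prepared with Trizol and read on an Illumina NextSeq. The authors deposited 1 transcript table per library, in the layout of Cuffcompare per the file headers, with FPKM, its confidence bounds and a coverage signal (mean read depth, not scaled to library size). FastQC, HTSeq, DESeq and the build dm6 are named in the submitters' processing notes. For the aligner, tool versions and use of strand, the entry is: not given in the sources used here. Counts are in none of the columns.

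A gene's value was the sum of FPKM over transcripts with class codes =, c, j and o; other classes held 0.267% to 3.70% of a library's FPKM. A new isoform is a transcript of class j, named by its closest reference transcript. Names and coordinates come from Ensembl release 115 for the same assembly; 17429 of 17525 genes were matched. limma (version 3.58.1, R version 4.3.3) compared groups on log2(FPKM + 0.5), with eBayes allowing the variance to follow the mean. It was run over genes averaging 1 FPKM or more in the 6 libraries, with Benjamini-Hochberg adjustment at 0.05, two-sided. The code was tested on data simulated from genes above 0 in every library, so that check does not cover genes with a group at 0, such as Dif. Figures used Python 3.11.15 and matplotlib 3.10.9. The half-width of deposited bounds had a median of 7.47% to 8.81% between 10 and 50 FPKM. Samples and replicate numbers follow the titles; no library was left out.

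The members and lists were chosen with earlier results of these data known. Named besides the members were CG6066, genes of the wider set past the threshold, the 2 most abundant of each of its lists, 8 core genes whatever their values, neighbours of members at 0 in a group, and the 3 genes most like spz. Alternatives were other pseudocounts, filters, scalings and class codes, a replicate block and leaving out each library.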

Additional observations from a re-analysis of the deposited data

Results flagged for a closer look

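One signal lay outside the gene values. In dNKAP RNAi replicate 2 an assembled transcript of 288 bases inside an intron of Dif was listed at 5.40 FPKM (deposited bounds 2.14 to 8.66 FPKM), and no such transcript was listed in a control or in another dNKAP RNAi library. Its class, intronic, does not enter the Dif value.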

How the results depend on the processing

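Dif was called under every alternative in which it was tested, with limma adjusted p from 2.02e-04 to 0.0239. Each of these fits rests on the same control values listed at 0, so the repeated calls are no separate support. With genes at 0 in any library left out, Dif is not tested and 0 members were called. No other member was called under any alternative. Without 1 library, 1 member, 1 to 3 genes of the wider set and 154 to 191 of all genes were called, against 1, 3 and 242. The call of CG6066 ended without control replicate 1, control replicate 3 or dNKAP RNAi replicate 2 (limma adjusted p up to 0.0584), and with the replicate block (0.134). With the replicate block 1 member (Dif), 0 genes of the wider set and 77 of all genes were called. Deviations of same-numbered libraries correlated at 0.017, 0.068 and 0.064, and those of other pairs between the groups at -0.116 to 0.055. These values cannot settle whether same-numbered libraries were handled together, and the labels do not say. With exact matches alone the log2 change turned to -0.12 for dl, -0.034 for cact, 0.21 for Tl, -0.28 for key, -0.049 for Tak1 and -0.45 for IKKbeta, and the cact to dl difference to 0.57. After median-ratio scaling it turned to -0.0073 for cact and -0.013 for scny, and after quantile normalization to -0.13 for PGRP-LC, 0.092 for Uev1A and -0.0084 for scny; none of these genes was called in any setting. Without 1 library the log2 change spanned 0 for cact (-0.10 to 0.19), PGRP-LC (-0.089 to 0.28), Dsp1 (-0.018 to 1.31), Uev1A (-0.078 to 0.011), akirin (-0.60 to 0.058), scny (-0.014 to 0.050) and IKKbeta (-0.012 to 0.53). The setting of exact matches alone leaves out the new isoforms. The cause of the other turns was not tested. Values near 1 FPKM, as for spz and PGRP-LC, have wide deposited bounds.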
